A study of Homo sapiens with 20 samples.

Results

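AGS is an established human gastric adenocarcinoma line that carries no Epstein-Barr virus (EBV−) and has the CpG island methylator phenotype (CIMP+), in which many CpG-rich promoters are densely methylated. Its response to decitabine (DCB) was measured by RNA sequencing in 4 of the 20 libraries of a gastric cancer series, as 2 libraries of cells given the solvent DMSO and 2 of cells given DCB at 7.5 µM, all harvested after 72 h. Both AGS groups are labelled wild type and were grown in RPMI medium with fetal bovine serum. The other 16 libraries come from YCCEL1, SNU719, SNU16 and HGC27, also labelled as wild type and treated in the same way, and are used here only for the estimate of the spread and for the difference between AGS and those lines. AGS is a single line, and the labels do not say whether its replicates came from cultures kept apart, so a p-value here covers only the variation among libraries. All 27350 genes whose deposited values summed to more than 10 over the 20 libraries were examined, out of 60232 genes in the table.

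DCB resembles cytidine, enters DNA when cells replicate it, and there traps DNA methyltransferases, so that methylation is lost as cells divide. Promoters of germline and early embryonic genes are among the best known sites where CpG methylation keeps genes silent in somatic cells, and DNA damage from the trapped enzyme is known to activate p53. AGS cells are known to have little E-cadherin.

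Values are the authors' normalized estimated counts. The 4 AGS libraries summed to 7.94e+06 to 8.11e+06. They would be worth 7.24e+06 to 9.44e+06 reads if the most frequent low value in a library were 1 read. This is a rough guide, as 36.4% to 41.3% of the values were whole multiples of it. The DMSO libraries listed 21669 and 20851 genes above 0, and the DCB libraries 25280 and 24911. Replicates correlated at 0.977 in DMSO and 0.973 in DCB (Pearson's r across genes on the log2 scale, which are not independent replicates). Squared differences between replicates at levels of at least 100 were 3.73 times the counting noise in DMSO and 4.21 times in DCB, by their median. These ratios rest on the same assumed read value. Of 10 epithelial and gastric carcinoma markers (KRT8, KRT18 and others), all were tested and their summed value was 44002 to 44796 in DMSO and 59849 to 62090.1 in DCB. The leukocyte list summed to 34373 to 34501 in DMSO and 16305 to 16798 in DCB. LYZ, which gastric glands also express, made up nearly all of it (34486 and 34352 in DMSO and 16258 and 16754 in DCB), whereas CD2 and MS4A1 were at 0. Of 10 tested leukocyte markers, 3 were higher and 0 lower at an adjusted p below 0.05 by limma, so LYZ was not called. LYZ was called lower in a limma fit of the AGS libraries alone (log2 difference -1.06, adjusted p = 0.0123). The stromal list summed to 476 to 528 and 2155 to 2288, and the endothelial list to 2.34 to 3.36 and 17.4 to 46.5, with CLDN5, EMCN and ERG at 0. The part of these lists in the results was not tested, and in bulk RNA fewer cells expressing a gene and less RNA per cell cannot be told apart.

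DCB raised many genes from near 0 and lowered a smaller number of well-expressed genes by smaller amounts. By limma on log2(value + 1), 5047 genes were higher (18.5% of those tested) and 2496 were lower (9.13%) at a Benjamini-Hochberg adjusted p below 0.05. Among the rises, 2466 (9.02%) were large, meaning a log2 difference above 2, 1234 (4.51%) were moderate, between 1 and 2, and 1347 (4.93%) were small. Among the falls the order was turned around, with 174 large (0.636%), 622 moderate (2.27%) and 1700 small (6.22%). Rises thus made up 66.9% of the calls and 93.4% of the large ones. Under quantile normalization, which forces all libraries to the same distribution and moved the median of all genes by -0.19 from 0.12, these shares were 51.3% and 71.7%. A fit of the AGS libraries alone called 3253 genes higher and 1520 lower, 1555 and 105 of them large.

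**Figure D1:**
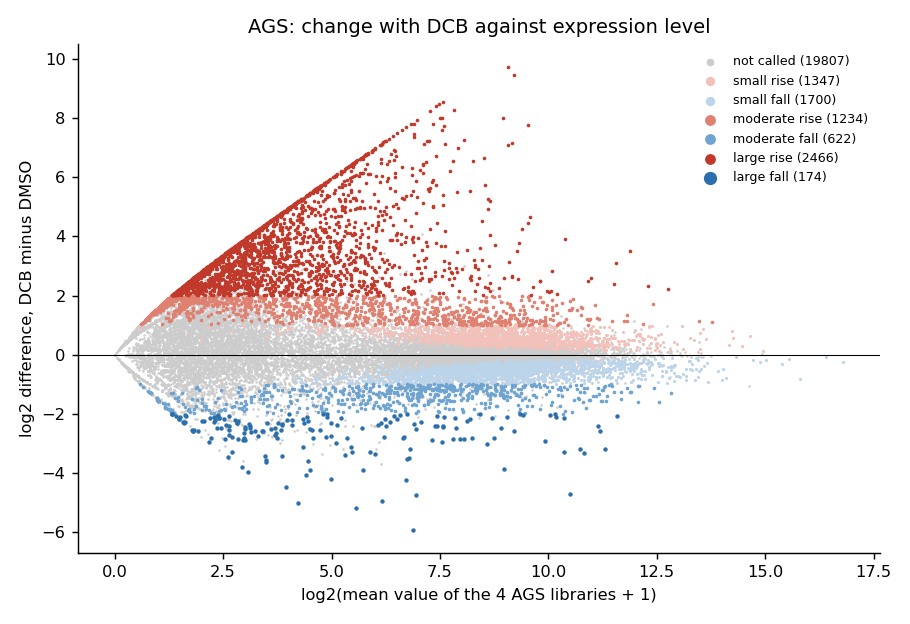
Each point is a gene, with its mean level over the 4 AGS libraries on the x axis (log2 of the value plus 1) and its log2 difference, DCB minus DMSO, on the y axis, coloured by the size of the call. The 2466 large rises lie mostly at low levels, along the upper edge set by genes at 0 in DMSO, and the 1700 small falls lie mostly at high levels.

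Large rises lay mostly at low levels, whereas at high levels calls in both directions were common. Large rises were 17.4% of the genes with a mean value of 1 to 10 over the AGS libraries and 20.9% of those between 10 and 100, but 1.99% of those between 100 and 1000 and 0.755% above 1000. Genes called lower were 2.06% of the genes at 1 to 10 and 30.2% of those above 1000. Rises of any size were 23.7% and 22.4% of the same 2 classes. A total of 5093 genes were listed at 0 in both DMSO libraries, and 2096 of them were above 0 in both DCB libraries. The reverse, 0 in both DCB libraries and above 0 in both DMSO libraries, was seen for 258 of 2500 genes. Large rises were 11.2% of protein-coding genes and 5.36% of long noncoding RNAs. On the X chromosome, where many cancer-testis genes lie, 196 of 954 genes had large rises (20.5%), against 11.8% on chromosome 19.

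Germline and cleavage-stage embryo genes had high shares of rises. Of 57 tested cancer-testis antigens, genes of the germ line whose products appear in tumours, 46 were higher (80.7%, against 18.5% of all genes). LEMD1 was the 1 called lower, and was not called in the fit of AGS alone (adjusted p = 0.079). In both DMSO libraries 36 of the 57 were at 0. Such a gene cannot be called lower, and it passed the filter only through DCB or other lines. This raises the share of rises in such lists. Without these 36 the median log2 difference was 3.65. GAGE2A had 0 in both DMSO libraries and 169.9 and 129 in DCB, and MAGEA6 had 0 in both DMSO libraries and 63.1 and 83.4 in DCB. Reads of the MAGE and GAGE genes can be split among near-identical copies, so single members are uncertain. PAGE4, an X-linked antigen outside this list, instead fell from 3976 and 4009 to 677 and 660.3 (log2 difference -2.58 ± 0.65 (SE), adjusted p = 0.00902).

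Of 43 germ cell and piRNA pathway genes, 33 were higher (76.7%, against 18.5% of all genes) and 0 lower, with 18 at 0 in both DMSO libraries. The piRNAs are small RNAs that silence transposons in germ cells. DAZL, which binds RNA in germ cells (chromosome 3, 16586792 to 16670306 in GRCh38), had 0.892 and 0 in DMSO and 341 and 374 in DCB (log2 difference 8.03 ± 0.32 (SE), adjusted p = 6.97e-10). MAEL, a piRNA factor (chromosome 1, 166975582 to 167022214), had 0.666 and 1.21 in DMSO and 376 and 367 in DCB (log2 difference 7.6 ± 0.28 (SE), adjusted p = 3.43e-10). For both genes the DCB libraries lay far above DMSO values near 0. TDRD12, another piRNA factor, had 0 in both DMSO libraries and 201 and 192 in DCB. TKTL1, a transketolase-like enzyme of the testis, rose from 5.20 and 6.14 to 1481 and 1464. TDRKH, which tethers piRNA proteins to mitochondria, had 0 in both DMSO libraries and 45.8 and 41.0 in DCB. Of 35 meiosis genes, 14 were higher and 0 lower, among them SYCP3 of the synaptonemal complex (0.732 and 0 in DMSO and 255 and 217 in DCB).

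The promoters of DAZL and MAEL are shown because these genes went from near 0 to the levels given above. The windows run from 250 bases before to 50 bases after the RefSeq start in GRCh38.p14 and are printed 5′ to 3′ on the gene's strand, with CpG dinucleotides in capitals. The DAZL window (chr3:16605374-16605673, minus strand) holds 33 CpGs and the MAEL window (chr1:166975332-166975631, plus strand) holds 60. The DAZL window lies inside the gene span given above, not at its end. Both windows are richer in CpG than is typical of large rises, whose median was 16.5 CpGs, against 23 over all tested genes. Their ratios of observed to expected CpGs were 0.862 and 1.117, against a median of 0.621 for large rises.
DAZL: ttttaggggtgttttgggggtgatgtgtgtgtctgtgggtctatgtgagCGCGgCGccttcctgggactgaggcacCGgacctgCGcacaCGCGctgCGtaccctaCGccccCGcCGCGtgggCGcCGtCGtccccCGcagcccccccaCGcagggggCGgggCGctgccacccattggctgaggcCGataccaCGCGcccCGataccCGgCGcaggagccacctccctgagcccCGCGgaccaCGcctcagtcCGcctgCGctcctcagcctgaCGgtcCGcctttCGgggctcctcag
MAEL: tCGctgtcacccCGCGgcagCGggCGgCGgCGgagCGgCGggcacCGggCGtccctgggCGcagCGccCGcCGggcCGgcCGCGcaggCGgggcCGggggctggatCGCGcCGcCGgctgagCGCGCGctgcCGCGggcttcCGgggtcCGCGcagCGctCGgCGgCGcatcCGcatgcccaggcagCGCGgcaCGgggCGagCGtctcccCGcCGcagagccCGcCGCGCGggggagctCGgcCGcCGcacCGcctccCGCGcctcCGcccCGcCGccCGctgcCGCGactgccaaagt

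Genes of the cleavage-stage embryo, which the factor DUX4 turns on, were at 0 before treatment in most cases. Of 54 tested, 50 were higher in DCB (92.6%, against 18.5% of all genes) and 0 were lower. However, 46 of the 54 were at 0 in both DMSO libraries and could not have been called lower. Without these 46 the median log2 difference was 2.54. DUX4 itself had 0 in both DMSO libraries and 129 and 144 in DCB, TRIM43 had 0 in both DMSO libraries and 379 and 335 in DCB, and MBD3L2 had 0 in both DMSO libraries and 155 and 183 in DCB. DUX4, TRIM43 and TRIM49C belong to repeated families, so the copy that gave the reads is uncertain. Among 31 endogenous retroviral and transposon-derived genes, 19 were higher (61.3%) and 2 lower (6.45%, against 9.13% of all genes). The rises included PNMA5 (0 and 1.1 in DMSO and 465 and 439.6 in DCB) and RTL8C (0 in both DMSO libraries and 39.2 and 33.4 in DCB). Imprinted genes, of which normally a single parental copy is active, were higher in 18 of 36 and lower in 3. IGF2 rose from 0.904 and 2.27 to 151 and 159 and PLAGL1 from 0.346 and 0 to 56.2 and 48.8, whereas H19, the noncoding neighbour of IGF2, fell from 10199 and 10500.1 to 4354 and 4125 (log2 difference -1.29 ± 0.39 (SE), adjusted p = 0.0251). Without any 1 of the 4 AGS libraries the H19 call was lost, at adjusted p-values of 0.0861 to 0.106.

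**Figure D2:**
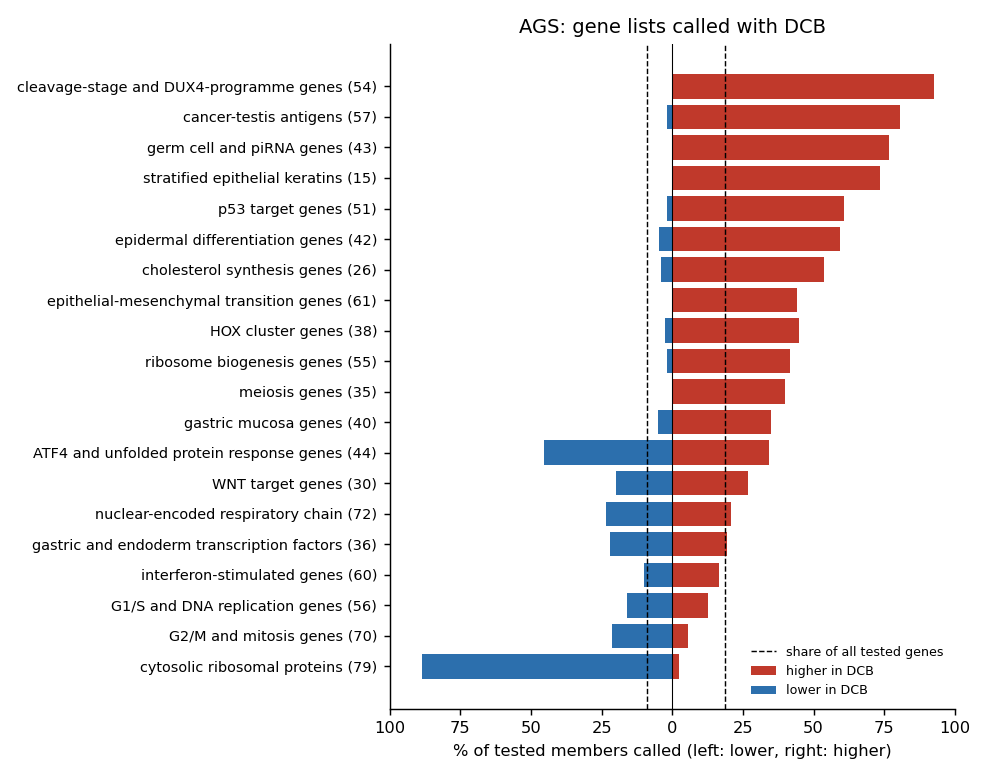
Bars give the percentage of tested members of each gene list (number tested in brackets) that were higher (right) or lower (left) in AGS DCB than in DMSO at an adjusted p below 0.05, and dashed lines give the shares over all 27350 genes, 18.5% and 9.13%. Germline and cleavage-stage lists reach furthest to the right, and cytosolic ribosomal proteins are the longest bar to the left. Members at 0 in both DMSO libraries, frequent in the former, cannot be called lower.

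A small set of genes was near 0 in AGS DMSO although all other lines expressed it. Below a value of 10 in both AGS DMSO libraries were 13407 genes, and 2182 of these (16.3%) had large rises. Of these, 15 had a mean DMSO value of at least 100 in each of YCCEL1, SNU719, SNU16 and HGC27, and 14 of the 15 had large rises in AGS. This set was chosen after the values were seen, on DMSO values that also enter the comparison, and was not tested. TBX3, a T-box transcription factor (chromosome 12, 114670255 to 114684175), had 0 in both DMSO libraries and 322 and 355 in DCB, which took it to a mean of 338, between the untreated means of SNU16 (159) and HGC27 (563). ACAA2, a mitochondrial thiolase of fatty acid oxidation (chromosome 18, 49782164 to 49813953), rose from 4.30 and 5.99 to 280.2 and 323 (log2 difference 5.63 ± 0.12 (SE), adjusted p = 1.58e-12). ANXA5, a calcium-dependent phospholipid-binding protein (chromosome 4, 121667946 to 121696995), rose from 2.40 and 1.33 to 196 and 258 (log2 difference 6.33 ± 0.18 (SE), adjusted p = 2.85e-11). In DCB, ACAA2 reached 71.7% and ANXA5 96.4% of the untreated mean of the lowest other line. ANXA5 also rose in SNU719, from a mean of 235 in DMSO to 1070 in DCB (log2 difference 2.19).

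PHF19, an accessory subunit of Polycomb repressive complex 2, rose from 5.39 and 4.13 to 118 and 136, SNX9, an endocytic sorting nexin, from 7.74 and 8.30 to 81.7 and 82.2, and GALNT11, which starts O-linked glycans, from 1.54 and 2.45 to 75.8 and 57.7. These 3 reached 58.6%, 50.8% and 16.5% of the lowest other line. The DCB libraries disagreed for PSMD5, a proteasome assembly chaperone (1.32 and 0 in DMSO and 515 and 31.6 in DCB), which was not called in the fit of AGS alone (adjusted p = 0.129). ALDH1A1, the aldehyde dehydrogenase that makes retinoic acid, was the member without a large rise and stayed near 0 (1.58 and 2.97 in DMSO and 2.97 and 4.25 in DCB). Its small rise was not called without DCB replicate 2 (adjusted p = 0.272) or without DMSO replicate 1 (adjusted p = 0.356). Its DMSO means were 231 to 2593 in the other lines.

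The ANXA5 promoter is shown as that of a gene expressed in every other line. Its window (chr4:121696931-121697230, minus strand, CpGs in capitals) holds 36 CpGs, also above the median of 16.5 for large rises.
ANXA5: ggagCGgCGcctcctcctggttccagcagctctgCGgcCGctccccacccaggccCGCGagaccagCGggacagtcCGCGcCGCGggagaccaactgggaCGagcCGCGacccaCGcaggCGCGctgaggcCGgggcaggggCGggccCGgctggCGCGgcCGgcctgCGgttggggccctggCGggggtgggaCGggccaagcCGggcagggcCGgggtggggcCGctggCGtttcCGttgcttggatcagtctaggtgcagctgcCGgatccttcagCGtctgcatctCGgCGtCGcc

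**Figure D3:**
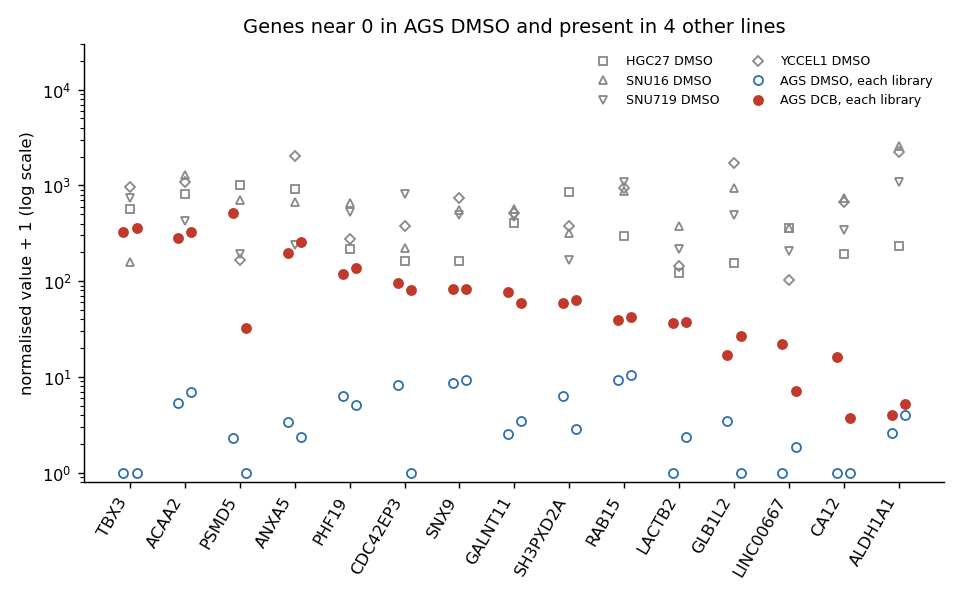
The y axis gives the normalised value plus 1 on a log scale for the 15 genes below 10 in both AGS DMSO libraries and at a mean of at least 100 in DMSO in each other line. Open circles are AGS DMSO and filled circles AGS DCB libraries, and grey symbols are the DMSO means of the other lines (2 libraries each). All 15 genes have both AGS DCB libraries above both AGS DMSO libraries, for ALDH1A1 barely so, as do 34.8% of all tested genes, and TBX3, at 322 and 355 in DCB, is the highest by its DCB mean.

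The AGS response differed from the mean response of the other 4 lines by a log2 value above 2 for 1071 genes (3.92%) and below -2 for 341 (1.25%), by the limma contrast of the differences. TBX3 led the larger responses, and its log2 difference in the other lines ran from -0.38 to 0.30. CTAG2, a cancer-testis antigen, had 0 in both DMSO libraries and 55.3 and 46.4 in DCB, while its DMSO mean was 209 to 1265 in HGC27, SNU16 and SNU719. In YCCEL1 it was also listed at 0 in DMSO, with a mean of 15.6 in DCB. A value below -2 means a more negative log2 difference in AGS than the mean of the others, which can be a deeper fall. Among these genes, DDIT4, an inhibitor of mTORC1, fell from 1774 and 1633 to 219 and 227 in AGS (log2 difference -2.93 ± 0.06 (SE), adjusted p = 1.58e-12). Its log2 difference in the other lines ran from -2.02 in HGC27 to 1.11 in YCCEL1. SYNPO, an actin-associated protein, fell from 2004 and 2102 to 487 and 541 in AGS, against log2 differences of 0.09 to 4.06 in the others. The trypsinogen gene PRSS2 fell from 664 and 693 to 78.1 and 86.0 in AGS, against 0.42 to 6.33 in the others, and PRSS1 fell from 207 and 253 to 3.55 and 2.12. PRSS1 and PRSS2 are close copies, so their reads may be shared. PRNP, the prion protein, fell from 1177 and 1219 to 916 and 877 in AGS (log2 difference -0.42), and its place among these genes rests on YCCEL1, where it was listed at 0 in DMSO with a mean of 111 in DCB.

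Promoter sequence was compared over the 14994 tested genes with a RefSeq window. The median ratio of observed to expected CpGs was 0.785 over all of them, 0.621 for large rises and 0.651 for large falls (86 genes). Genes at 0 in DMSO with large rises had a median ratio of 0.627, and genes at 0 in DMSO and DCB had 0.429. The quartiles were wide, from 0.498 to 0.922 over all genes and from 0.297 to 0.839 for large rises, and no test was made.

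A list of 44 ATF4 and unfolded protein response genes was examined, ATF4 being the transcription factor that cells use when amino acids are short. Of its members, 20 were lower (45.5%, against 9.13% of all genes) and 15 higher (34.1%, against 18.5%). In the fit of AGS alone 21 were lower and 11 higher. Those named below for amino acid supply and as chaperones of the endoplasmic reticulum (ER) are examples, some of them chosen after their values were seen. ASNS, asparagine synthetase (chromosome 7, 97851677 to 97872542), fell from 3256 and 3330.1 to 302 and 344 (log2 difference -3.35 ± 0.19 (SE), adjusted p = 2.01e-08). SLC7A11, which imports cystine (chromosome 4, 138164097 to 138242349), fell from 943 and 943 to 51.0 and 78.2 (log2 difference -3.88 ± 0.14 (SE), adjusted p = 3.72e-10). PSAT1 of serine synthesis fell from 5043 and 4884 to 1137 and 1195 (log2 difference -2.09 ± 0.04 (SE), adjusted p = 8.08e-13). For all 3 genes both DCB libraries lay far below both DMSO libraries, and the DCB libraries of SLC7A11 were further apart than those of ASNS and PSAT1 relative to their level.

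PCK2, the mitochondrial phosphoenolpyruvate carboxykinase, fell from 1677 and 2001 to 412 and 488. The mitochondrial one-carbon enzymes SHMT2 and MTHFD2 fell from 2577 and 2371 to 888 and 859 and from 3574 and 3613 to 1189.8 and 1242. Moderate falls took in the amino acid carriers SLC7A5 (from 4202 and 4116 to 1743 and 1723), SLC1A5 (from 7637 and 7595 to 3454 and 3553) and SLC7A1 (from 1291 and 1264 to 648 and 616), and the tRNA synthetases AARS1 (from 3822 and 3301 to 1299.8 and 1104), GARS1 (from 3189 and 3149 to 1200.4 and 1221) and WARS1 (from 2523 and 2405 to 1067 and 1191). The mRNA of ATF4 itself fell from 4998 and 5038 to 2719 and 2567 (log2 difference -0.93 ± 0.03 (SE), adjusted p = 1.98e-10). SLC43A1, a neutral amino acid carrier outside the list, fell from 164 and 189 to 23.6 and 25.3.

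Among the 15 rises, HSPA5, the main ER chaperone, rose from 10285 and 10344 to 14900.2 and 15031, HSP90B1 from 19820.3 and 20302 to 30491 and 31818, and the disulfide isomerase PDIA4 from 4792 and 4699 to 7683 and 7697. These were small changes with little spread (log2 differences of 0.54, 0.63 and 0.70). Large rises were seen for TRIB3, a pseudokinase that restrains ATF4 signalling, from a low level (from 1.72 and 4.31 to 54.2 and 42.6). ATF3, a stress-induced factor, had a large rise from a higher level (from 257 and 288 to 1526 and 1511). PHGDH, which opens the serine pathway that PSAT1 continues, rose from 1.57 and 6.23 to 34.3 and 35.3, but the call was lost in the fit of AGS alone (adjusted p = 0.0934). DDIT3, the pro-apoptotic factor CHOP, was not called (151 and 167 in DMSO and 187 and 181 in DCB, adjusted p = 0.159).

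The letters TGATGNAA, the core of the amino acid response element that ATF4 complexes bind, were searched on both strands of the promoter windows. They were in 6 of the 16 list members called lower that had a window, in 1 of the 14 called higher, in 8 of 39 list members in all, and in 2.13% of the windows of tested genes (3.67% of all 27305 windows). Many members are on the list because such sites are known in them, so the share in the list is not independent of its choice. Windows of 2 falling members are shown, with the match in capitals (on the reverse strand in CHAC1). The match begins at position -68 from the start of ASNS (chr7:97872359-97872658, minus strand) and at -209 from that of CHAC1 (chr15:40953221-40953520, plus strand), a glutathione-degrading enzyme that fell from 694 and 700.1 to 389 and 374.
ASNS: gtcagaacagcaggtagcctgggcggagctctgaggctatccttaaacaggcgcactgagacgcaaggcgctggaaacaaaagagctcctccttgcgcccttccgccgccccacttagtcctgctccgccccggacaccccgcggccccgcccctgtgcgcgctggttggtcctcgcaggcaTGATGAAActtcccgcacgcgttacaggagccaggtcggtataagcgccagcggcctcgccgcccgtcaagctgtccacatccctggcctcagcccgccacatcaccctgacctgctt
CHAC1: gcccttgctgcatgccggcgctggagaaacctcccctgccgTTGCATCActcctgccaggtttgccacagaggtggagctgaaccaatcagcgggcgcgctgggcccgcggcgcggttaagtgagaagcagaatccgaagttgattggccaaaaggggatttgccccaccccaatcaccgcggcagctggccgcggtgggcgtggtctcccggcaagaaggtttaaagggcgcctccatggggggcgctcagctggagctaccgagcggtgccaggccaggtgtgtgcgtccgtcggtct

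Of 51 targets of p53, 31 were higher (60.8%, against 18.5% of all genes) and 1 was lower. CDKN1A, the cell cycle inhibitor p21, rose from 2093 and 1995 to 5285 and 4971 (log2 difference 1.33 ± 0.11 (SE), adjusted p = 5.73e-07), and MDM2, the ubiquitin ligase for p53, rose from 1009.5 and 1032 to 3056 and 3480.5 (log2 difference 1.67 ± 0.11 (SE), adjusted p = 8.58e-08). PHLDA3, an inhibitor of AKT, rose from 0.559 and 0 to 1132 and 1001, the largest log2 difference of the list (9.74). The death receptor FAS rose from 76.9 and 79.1 to 578 and 589, and the other rises among well-expressed targets were mostly small or moderate, as for FDXR (from 314 and 336 to 1199 and 1167), PPM1D (from 157 and 182 to 559 and 605), TP53I3 (from 418 and 426 to 1419.5 and 1454) and BAX (from 2306 and 2135 to 3521 and 3204). BBC3, PMAIP1 and GDF15 were not called, with log2 differences of 0.27, 0.14 and 0.19.

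**Figure D4:**
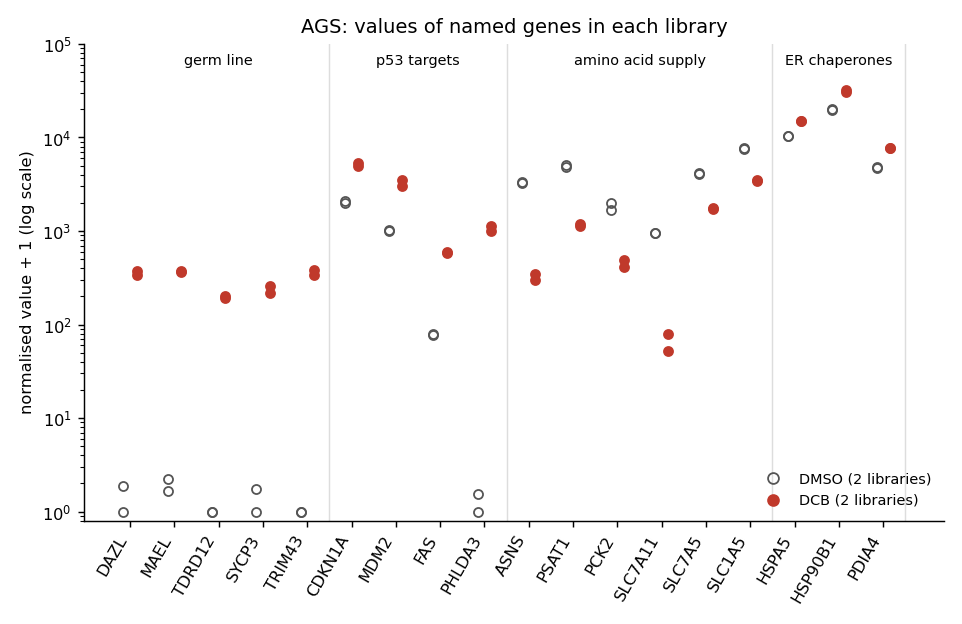
Points give the normalised value plus 1 of each library on a log scale, open for DMSO and filled for DCB (2 libraries each), for named genes of 4 kinds. Germline genes go from near 0 to well above 100, the amino acid supply genes fall, and CDKN1A, MDM2, FAS, PHLDA3 and the 3 ER chaperones rise.

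Of 70 genes of G2/M and mitosis, 15 were lower (21.4%, against 9.13% of all genes) and 4 higher (5.71%, against 18.5%), with a median log2 difference of -0.15, and 9 and 2 were called in the fit of AGS alone. KIF15 and KIF11, motors of the mitotic spindle, fell from 436 and 395 to 107 and 111 and from 847 and 917 to 563 and 576. Of 56 G1/S and DNA replication genes, 9 were lower (16.1%, against 9.13% of all genes) and 7 higher (12.5%, against 18.5%). Among the latter was PCNA, the sliding clamp of replication (2333 and 2518 in DMSO and 3472 and 3649 in DCB). CCND1, cyclin D1, rose from 3587 and 3619 to 7218 and 6981 (log2 difference 0.98 ± 0.04 (SE), adjusted p = 4.86e-10).

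Cytosolic ribosomal proteins fell as a group by a small amount. Of 79, 70 were lower (88.6%, against 9.13% of all genes) and 2 were higher (2.53%, against 18.5%). In the fit of AGS alone 50 were lower and 1 higher. FAU was 1 of the 2 higher, and was not called in the fit of AGS alone (adjusted p = 0.0774). The median log2 difference of the list was -0.44, against 0.12 over all tested genes and -0.02 over those at a mean of at least 100. RPS18 fell from 8807 and 9135 to 4646 and 4576, the largest fall of the list, and RPL3 fell from 13615 and 14060.0 to 7704 and 7524. EEF1A1, the elongation factor that brings aminoacyl-tRNA to the ribosome, fell from 72506 and 72848 to 41508 and 41321 (log2 difference -0.81 ± 0.01 (SE), adjusted p = 8.70e-14). Quantile normalization left 65 lower and 3 higher. Genes that build ribosomes moved the other way, with 23 of 55 higher (41.8%) and 1 lower (13 and 1 in the fit of AGS alone). Examples were NOL6 (from 494 and 517 to 1473 and 1485) and GRWD1 (from 559 and 596 to 1252 and 1274). Of 13 mitochondrially encoded genes, 9 were lower and 2 higher by small amounts (median log2 difference -0.15), but 0 passed in the fit of AGS alone, and 4 were lower and 4 higher under quantile normalization.

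**Figure D5:**
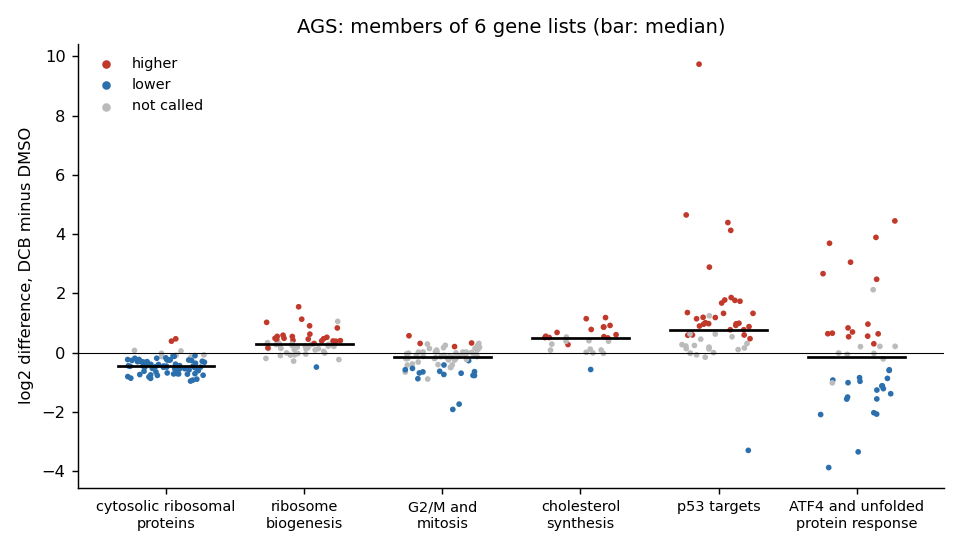
Each point is a tested member of 1 of 6 gene lists, with its log2 difference on the y axis, red where it was higher, blue where it was lower and grey where it was not called, and black bars are medians. Ribosomal proteins sit in a narrow band around -0.44, and the ATF4 and unfolded protein response list spreads to both sides.

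Genes of cholesterol synthesis were higher in 53.8% and those of glycolysis and hypoxia in 47.5%, against 18.5% of all genes. Of 26 cholesterol genes, 14 were higher and 1, the regulator SREBF2, was lower (not called without DCB replicate 1 or DMSO replicate 1, adjusted p = 0.155 and 0.112), with a median log2 difference of 0.50 (7 and 0 in the fit of AGS alone). ACAT2, which makes acetoacetyl-CoA, rose from 231 and 228 to 498 and 519.9. Of 40 glycolysis and hypoxia genes, 19 were higher and 5 lower (10 and 4 in the fit of AGS alone). SLC2A3, the glucose transporter GLUT3, rose from 591 and 625 to 6741 and 7055, and BNIP3, a mitophagy receptor, rose from 0.799 and 2.01 to 56.1 and 63.8. VEGFA, the angiogenic growth factor, fell from 3767 and 3803 to 669.9 and 749.9 (log2 difference -2.42 ± 0.07 (SE), adjusted p = 4.82e-11), and DDIT4, given above, fell with it, so that members of this list moved in both directions.

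Of 36 transcription factors of the stomach and gut endoderm, 8 were lower (22.2%, against 9.13% of all genes) and 7 higher (19.4%, against 18.5%). These counts were 8 and 2 in the fit of AGS alone and 9 and 4 under quantile normalization. SOX2, GATA4 and FOXA1, factors of foregut epithelium, fell from 316 and 309 to 145 and 126, from 1120.1 and 1163 to 532 and 554 and from 630.1 and 742 to 419 and 390.3. HNF4G, a nuclear receptor of gut epithelium, fell from 46.4 and 29.1 to 5.28 and 6.04 (adjusted p = 3.91e-05, and 0.0501 in the fit of AGS alone), and CDX2, of intestinal identity, was not called (497 and 468 in DMSO and 623 and 586 in DCB). Among 40 gastric mucosa genes, 14 were higher and 2 lower, with 8 and 4 in the fit of AGS alone. REG4, a secreted lectin, rose from 567 and 562 to 3450.2 and 3453 and CLDN18, a tight junction protein of the stomach, rose from 1.52 and 0.955 to 69.1 and 75.3, whereas REG1A fell from 438 and 495 to 63.7 and 61.9. The mucin MUC13 rose from 312 and 287 to 1144 and 1199.

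Of 7 keratins of simple epithelia, 5 were higher (71.4%, against 18.5% of all genes) and 0 lower (against 9.13%). KRT8 went from 14229.7 and 13808 to 25279.7 and 23513 and KRT23 from 5.67 and 6.87 to 756 and 697. Of 15 keratins of stratified epithelia, which the stomach normally lacks, 11 were higher (73.3%) and 0 lower. In the fit of AGS alone, 6 simple and 8 stratified keratins were higher. KRT13 rose from 23.4 and 24.2 to 774 and 731 and KRT6A from 6.44 and 2.98 to 289 and 332. Of 42 epidermal differentiation genes, 25 were higher (59.5%) and 2 lower (4.76%), with 17 and 2 in the fit of AGS alone. The kallikrein KLK10 rose from 24.6 and 32.2 to 744 and 613. The 2 called lower were SLPI (from 465 and 490.2 to 108 and 100.1) and S100P (from 1113 and 1073 to 263 and 259.9). The S100P call was lost without any 1 of the 4 AGS libraries (adjusted p = 0.0972 to 0.105). CLDN2, a claudin that forms cation pores, fell from 2826 and 2777 to 121 and 93.4 (log2 difference -4.71 ± 0.36 (SE), adjusted p = 3.52e-07). Of 61 genes of epithelial-mesenchymal transition, 27 were higher (44.3%) and 0 lower, with 19 and 1 in the fit of AGS alone. The rises took in FN1, fibronectin (from 1.03 and 0 to 333 and 412), and COL1A1 (from 276 and 255 to 1941 and 1876), which is also the most abundant marker of the stromal list.

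Signalling genes moved on both sides of their pathways. Of 28 WNT antagonists, 11 were higher (39.3%, against 18.5% of all genes) and 2 lower (7.14%, against 9.13%). These were 5 and 2 in the fit of AGS alone. DKK1, a secreted blocker of the WNT co-receptor, rose from 599.8 and 675 to 5289 and 5534 (log2 difference 3.09 ± 0.21 (SE), adjusted p = 1.38e-07) and DKK3 rose from 4.49 and 5.76 to 129.7 and 183. AXIN2 and RNF43, feedback inhibitors that WNT signalling itself induces, fell from 3853 and 3959.9 to 2295 and 2365 and from 2921 and 2864 to 1589 and 1843. Of 30 WNT target genes, 8 were higher and 6 lower, a balance that turned to 6 higher and 10 lower in the fit of AGS alone. EPHB2, a receptor kinase of the crypt base, fell from 947 and 766 to 186 and 207, whereas ASCL2 rose from 3.57 and 3.36 to 50.5 and 60.6 and LEF1, listed at 0 in both DMSO libraries, reached 30.5 and 55.1. MYC was not called (953 and 1126 in DMSO and 1100.4 and 1221 in DCB).

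Of 44 ligands and antagonists of the TGF-beta superfamily, 20 were higher (45.5%, against 18.5% of all genes) and 2 lower (4.55%, against 9.13%). BMP7 rose from 10.8 and 5.56 to 324 and 419 and GREM1, a BMP antagonist, from 6.73 and 8.44 to 233 and 239.7, whereas INHBE, an inhibin subunit, fell from 132 and 142 to 2.22 and 5.09 (log2 difference -4.96 ± 0.45 (SE), adjusted p = 1.81e-06). Among 38 HOX cluster genes, 17 were higher (44.7%, against 18.5% of all genes) and 1, HOXB3, was lower (2.63%, against 9.13%). In the fit of AGS alone 10 were higher, and 16 of the 38 were at 0 in DMSO. HOXB3 was not called in the fit of AGS alone (adjusted p = 0.0665), or without DCB replicate 1, DMSO replicate 1 or DMSO replicate 2 (adjusted p = 0.0681 to 0.163). HOXA10 reached 13.6 and 25.8 from 0 in both DMSO libraries. Of 27 retinoic acid pathway genes, 12 were higher (44.4%, against 18.5% of all genes) and 2 lower (7.41%, against 9.13%). In the fit of AGS alone these were 7 and 1. ALDH1A3, an enzyme that makes retinoic acid, had 0 in both DMSO libraries and 148 and 154 in DCB. The receptor RARB had 0 in both DMSO libraries and 2.51 and 18.4 in DCB (adjusted p = 0.00155, and 0.181 in the fit of AGS alone), and RARA was not called (228 and 252 in DMSO and 171 and 187 in DCB).

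Enzymes that make and remove reactive oxygen species changed in both directions. Of 28, 12 were higher (42.9%, against 18.5% of all genes) and 6 lower (21.4%, against 9.13%). DUOX2, a hydrogen peroxide-producing oxidase, rose from 11.7 and 8.34 to 395 and 341 and its partner DUOXA2 had 0 in both DMSO libraries and 27.8 and 31.1 in DCB, whereas the oxidase NOX1 fell from 216 and 199 to 34.9 and 36.5. DUOX1 rose from 4.0 and 8.23 to 78.5 and 95.3, GPX1, a glutathione peroxidase, from 1174 and 1179 to 2011 and 2024, and NOX5 was not called (0 and 1.99 in DMSO and 1.96 and 1.71 in DCB). Of 44 NRF2 targets and aldo-keto reductases, 9 were higher (20.5%, against 18.5% of all genes) and 12 lower (27.3%, against 9.13%). Under quantile normalization these were 5 and 14. NQO1, a quinone reductase that NRF2 induces, fell from 3654 and 3937 to 1887 and 1768, while HMOX1, heme oxygenase, rose from 141 and 134 to 293 and 299.

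In the fit of all 20 libraries, interferon-stimulated genes as a list were called at shares near those of all genes. Of 60, 10 were higher (16.7%, against 18.5%) and 6 lower (10.0%, against 9.13%). The fit of AGS alone called 14 of them higher and 4 lower, against 3253 and 1520 of all 27350 genes. MX1 rose from 20.7 and 35.4 to 417 and 308 and HERC5 from 2.10 and 0 to 151 and 154, while LGALS3BP fell from 5429.9 and 5192 to 2257 and 2107 and BST2 from 576 and 644 to 357 and 353. Of 18 sensors of nucleic acids, 4 were higher (22.2%, against 18.5% of all genes) and 3 lower (16.7%, against 9.13%). With the replicate number as a block, 1 was higher and 2 were lower. STING1, the adaptor for cytosolic DNA, rose from 1.83 and 4.02 to 56.7 and 37.5. Of 42 epithelial chemokines and cytokines, 21 were higher and 0 lower (11 and 1 in the fit of AGS alone), and TNFSF9, a costimulatory ligand, had 0 in both DMSO libraries and 177 and 182 in DCB.

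Of 21 genes of the DNA methylation machinery, 4 were higher and 2 lower, shares near those of all genes. DNMT1, the maintenance enzyme that DCB traps, had 1214 and 981 in DMSO and 936 and 739 in DCB (adjusted p = 0.221), and DNMT3B rose from 235 and 242 to 467 and 501. APOBEC3B, a cytidine deaminase counted in this list, rose from 349.9 and 384 to 1422 and 1441. Of 29 genes for uptake and metabolism of the drug, 3 were higher (10.3%, against 18.5% of all genes) and 5 lower (17.2%, against 9.13%). CDA, which inactivates decitabine, rose from 9.33 and 14.4 to 88.8 and 85.1. Of 53 genes known as targets of methylation in gastric tumours, 26 were higher (49.1%, against 18.5% of all genes). GATA4 was the 1 called lower, and 16 were higher in the fit of AGS alone. TIMP3, a metalloproteinase inhibitor, rose from 0 and 1.12 to 98.4 and 108, and RASSF1, a RAS effector, rose from 121 and 144 to 191 and 192 (adjusted p = 0.00378, and 0.0891 in the fit of AGS alone). HOPX, a homeodomain-only protein, had 16.1 and 4.66 in DMSO and 4.54 and 14.4 in DCB and was not called.

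Among genes with large rises, LRRK1, a leucine-rich repeat kinase, was at a high level in DCB and rose from 2399 and 2442 to 11256 and 11589 (log2 difference 2.24 ± 0.12 (SE), adjusted p = 8.20e-09). GPRC5A, a membrane receptor that retinoic acid induces, rose from 1609 and 1762 to 8443 and 8444, and IGFL2, of the insulin growth factor-like family, from 174 and 155 to 2569 and 2453. ESRG, a noncoding transcript of endogenous retroviral origin, rose from 463 and 439.8 to 1906 and 1882. Moderate rises at the highest levels took in ANXA2, a membrane-binding annexin (from 8685 and 9038 to 19010.2 and 19304), FLNA, which crosslinks actin (from 7319 and 6851 to 15868 and 15344), and CD24, a surface glycoprotein (from 2461 and 2678 to 8268 and 8428).

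Large falls from high levels, beside those given above, were seen for CHD3, a chromatin remodeller of the NuRD complex (from 5092 and 4060.3 to 523 and 477), LRP8, a lipoprotein receptor (from 2789 and 3324 to 242 and 442), and GLB1, the lysosomal beta-galactosidase (from 1925 and 1817 to 394 and 464). MBNL3, a splicing regulator, fell from 1004 and 1007 to 151 and 183 and PTPRO, a receptor phosphatase, from 104 and 90.8 to 6.55 and 4.57. The transporter ABCC3 fell from 2217 and 2052 to 634 and 367, and its call was lost in the fit of AGS alone (adjusted p = 0.0521). Moderate falls at the highest levels took in GATM, of creatine synthesis (from 6549 and 6439 to 2097 and 2207), ZFP36L1, which promotes mRNA decay (from 5898 and 5917 to 2786 and 2839), and OGT, the O-GlcNAc transferase (from 4802 and 4910.3 to 1629 and 1788). TNS4, a tensin, fell from 8952 and 9195 to 3068 and 2899.7 (adjusted p = 0.0207), but was not called without any 1 of the 4 AGS libraries (adjusted p = 0.0765 to 0.0918).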

How the data were processed

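RNA was sequenced from 5 gastric cancer lines with 2 libraries per line and treatment, and all 20 columns of the deposited table were used. The values, kept here as signal in no named unit, are estimated counts that the authors normalized before they were deposited. The labels name NEBNext libraries of poly(A) RNA, the submitters' notes list GRCh37, DESeq2 (1.14.1), featureCounts (1.5.1) and STAR (2.5.2b), and the study's methods name 3′ QuantSeq, STAR and GRCh38. Of 60064 genes found in GENCODE v44, 92.6% have its GRCh38 coordinates. Which protocol gave the values could not be settled, so levels are not compared between genes per length. About 36.4% to 41.3% of the AGS values were whole multiples of the most frequent low value of their library (within 0.02), so no count model was used.

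Genes summing to more than 10 over the 20 libraries were fitted on log2(value + 1) with limma 3.58.1 (lmFit, eBayes with trend) in R 4.3.3, as 10 groups of line and treatment, and p-values were adjusted by Benjamini-Hochberg over all 27350 genes. Standard errors are limma's, with n = 2 libraries per group. The AGS difference from other lines was a contrast in the same fit. Where DMSO was listed at 0 in both libraries, no log2 difference of the gene is printed. Lists are described by counts at the adjusted p, without a list test. The shares over all tested genes were 18.5% higher and 9.13% lower. The rule for named genes took, among genes whose AGS groups did not overlap, the 12 with the smallest adjusted p and the 12 at the highest level for large rises and falls, the 12 at the highest level for moderate ones, up to 6 members of each list plus up to 6 at its highest levels, 6 genes in each direction of the difference from other lines, and genes the study names. The 15 genes near 0 in AGS DMSO and the list members AARS1, BST2, CDX2, CHAC1, DDIT3, EPHB2, FAU, FDXR, FOXA1, GARS1, HMOX1, KIF11, LEMD1, MTHFD2, MYC, NOX1, PMAIP1, PPM1D, REG1A, S100P, SHMT2, SLC7A1, SLPI, TP53I3 and WARS1 lie outside that rule and were chosen after their values were seen. The lists and the genes shown were chosen with earlier results of these data known. The method was checked on simulated data. RefSeq promoter windows are from GRCh38.p14. Alternatives to the pseudocount, filter, scaling, model and samples were tried. Bisulfite sequencing and viral genes were not analysed here, and some genes are not reported here.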

Additional observations from a re-analysis of the deposited data

Results flagged for a closer look

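The response of AGS differed from the mean response of the other 4 lines, by limma's contrast of the log2 differences, with a value above 2 for 1071 genes and below -2 for 341. Among the larger responses, the 6 of smallest adjusted p were TBX3 (8.48 on the log2 scale), ACAA2 (5.48), CTAG2 (4.77), ANXA5 (5.57), GALNT11 (4.53) and PHF19 (4.56). Each of TBX3, ACAA2, ANXA5, GALNT11 and PHF19 was below 10 in both AGS DMSO libraries and had a DMSO mean of at least 100 in every other line. CTAG2 was listed at 0 in DMSO in AGS and in YCCEL1, and had DMSO means of 209 to 1265 in the others, so its value depends on the pseudocount, as does that of TBX3, listed at 0 in AGS DMSO.

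Among the values below -2, the 6 of smallest adjusted p were DDIT4 (-2.49), PRNP (-2.37), SLC7A11 (-3.28), SYNPO (-3.96), PRSS2 (-5.98) and SLC43A1 (-2.18). DDIT4, SLC7A11 and SLC43A1 had negative log2 differences in AGS that were larger in size than those of each other line. The log2 differences of SLC7A11 were -1.84 in HGC27, -0.04 in SNU16, 0.16 in SNU719 and -0.66 in YCCEL1. PRNP and PRSS2 were listed at 0 in DMSO in YCCEL1 and in HGC27, respectively, and their values depend on the pseudocount there.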

How the results depend on the processing

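Of 174 gene results, 156 kept their call and direction in every fit. With the AGS libraries alone, 1555 large rises, 105 large falls and 702 moderate rises were called, and 3253 genes were higher and 1520 lower at the adjusted p alone. Below, larger and smaller responses are differences from the other lines above 2 and below -2, so a smaller one can be a deeper fall. A pseudocount of 5 gave 1051 large rises, 86 large falls, and 481 larger and 135 smaller responses. A pseudocount of 0.5 gave 766 moderate rises. Quantile normalization gave 674 large and 1260 moderate falls. A mean of at least 5 over the AGS libraries left 786 moderate rises and 477 genes at 0 in DMSO and above 0 in DCB. Leaving out 1 AGS library at a time, which leaves a lone sample assumed to vary like the other groups, gave 2275 to 2313 large rises, 200 to 234 large falls, 677 to 789 moderate rises, 493 to 506 moderate falls, 3927 to 4015 genes higher and 1860 to 1913 lower, and 954 to 971 larger and 296 to 319 smaller responses. The labels give replicate numbers but no pairing, and deviations of same-numbered libraries correlated at -0.0236 to 0.0354 in the 5 lines, under the 0.1 set for pairing, so the numbers were not taken as pairs. With the replicate number as a block, 2401 large rises and 170 large falls were called. Under it 4623 genes were higher and 2253 lower at the adjusted p alone, and the calls of TNS4, HOXB3 and S100P were lost (adjusted p = 0.0592, 0.0691 and 0.101 by limma). Counts for the gene lists moved by over 1.5 times in 120 of 1596 comparisons with an alternative. Signs turned for 3 genes, ALDH1A1 under quantile normalization (-0.31), HOPX with 1 AGS library left out (-0.89 to 0.71) and NOX5 in the same way (-0.078 to 1.5). The cause of these shifts was not tested. The 2 libraries per group limit what can be called at low levels, and a rise from a value listed at 0 has no fold.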
